A study of Homo sapiens with 6 samples.

Results

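Long intergenic non-coding RNAs were followed in LP-1 cells, a human myeloma line, after depletion of RNF5, a ubiquitin ligase anchored in the membrane of the endoplasmic reticulum. The group held every row of the deposited table whose gene name begins with LINC and a digit, 56 of 1877 listed genes under 55 names, since LINC00484 was listed under 2 Ensembl identifiers. The knockdown group was 3 libraries of LP-1 cells with a short hairpin RNA against RNF5, and the control group was 3 libraries of LP-1 cells labelled Ctrl, a non-target control per the series text. Cells of both groups were grown in RPMI-1640 with 15% serum. Nothing used here states how many hairpins were used, how long the depletion lasted or whether each library came from its own culture, so p-values measure only the spread between these 6 libraries. RNF5 itself stood at 1594.70, 1649.43 and 1248.30 in the control libraries and at 95.40, 81.35 and 88.44 in the knockdown libraries, which left 5.90% of its control level (limma adjusted p = 1.34e-08).

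The table held only genes that its authors had selected as changed between these same 6 libraries. A LINC gene outside it has no value here. Each member had therefore already passed the authors' selection, and its test below is a description of size and spread rather than independent evidence. Values are normalized abundances whose scale is not given, written with 2 decimals, and sequencing depth is unknown. Because it is not given whether they were divided by transcript length, levels are compared between libraries and not between genes. In bulk RNA of this kind, fewer cells making an RNA and less of it per cell cannot be told apart. Means carry the SD over 3 libraries, and folds are ratios of the group means.

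LINC names are given to long non-coding RNAs transcribed from the stretches between protein-coding genes. Most are made by RNA polymerase II, capped, spliced and polyadenylated like messenger RNAs, but they tend to be low in abundance, restricted to few cell types and retained in the nucleus. Many are turned over by the nuclear exosome, and some arise beside a coding gene from a shared, divergent promoter. A few act on neighbouring genes or on chromatin, and for most no function is known.

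The LINC genes were mostly higher after RNF5 depletion. The authors' deposited table listed 41 as higher and 15 as lower, which is 73.2% higher against a background of 49.2% higher and 50.8% lower over all 1877 genes. Fitted with limma over the whole table on log2(value + 1), 39 members were abundant enough to test, reaching 1 or more in at least 3 libraries. All 39 passed at a Benjamini-Hochberg adjusted p under 0.05, beside 97.7% of all genes tested, so passing sets these RNAs apart from nothing. Sizes in log2 units below come from this fit. Of the 39, 33 rose and 6 fell, where over all tested genes 55.7% rose and 42.0% fell. In 7 of the 39 members (6 higher, 1 lower) every value of the other group was under 1, so they entered the fit only through the group where they were high. Some others also fell short of the filter in their low group. LINC00343 and LINC00891 had 1 control value at 1 or more, LINC01291 and LINC02334 had 2, and LINC02019 had 1 such knockdown value. The median log2 fold change was 1.07 in the 39 and 0.73 over the 1290 genes tested. Both depend on the filter, and without it they were 0.84 over the 56 members and -0.10 over all 1877 genes, where the sign of the background turns. The 3 control and 3 knockdown values did not overlap in 52 of the 56 members (92.9%), beside 93.2% of all listed genes. The 4 that overlapped were all listed as lower.

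**Figure D1:**
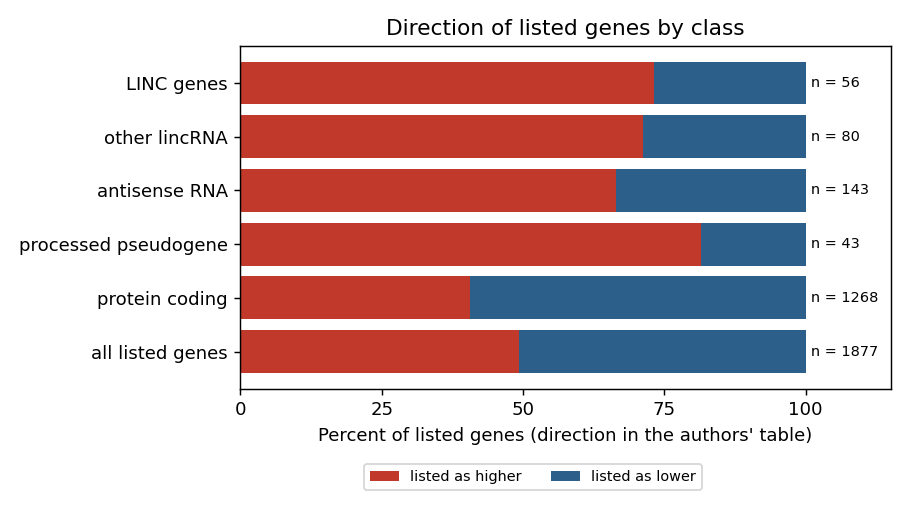
Percent of listed genes that the authors' deposited table gives as higher (red) or lower (blue) after RNF5 depletion, by gene class (GENCODE release 29, LINC genes taken out of the other classes), with the number of genes beside each bar. LINC genes (73.2% higher) and the other lincRNA genes (71.3%) show nearly equal shares, while protein-coding genes stand at 40.7%.

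The direction was shared with other non-coding classes. By the authors' deposited table, 57 of the 80 other listed genes that GENCODE classes as lincRNA were higher (71.3%), as were 95 of 143 antisense RNAs (66.4%) and 35 of 43 processed pseudogenes (81.4%). Of the 1268 listed protein-coding genes, 516 were higher (40.7%) in the same deposited table. The other lincRNA genes had a median log2 fold change of 1.04 and the protein-coding genes one of -0.57. These medians were not tested against each other, and they rest on genes chosen for their change.

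**Figure D2:**
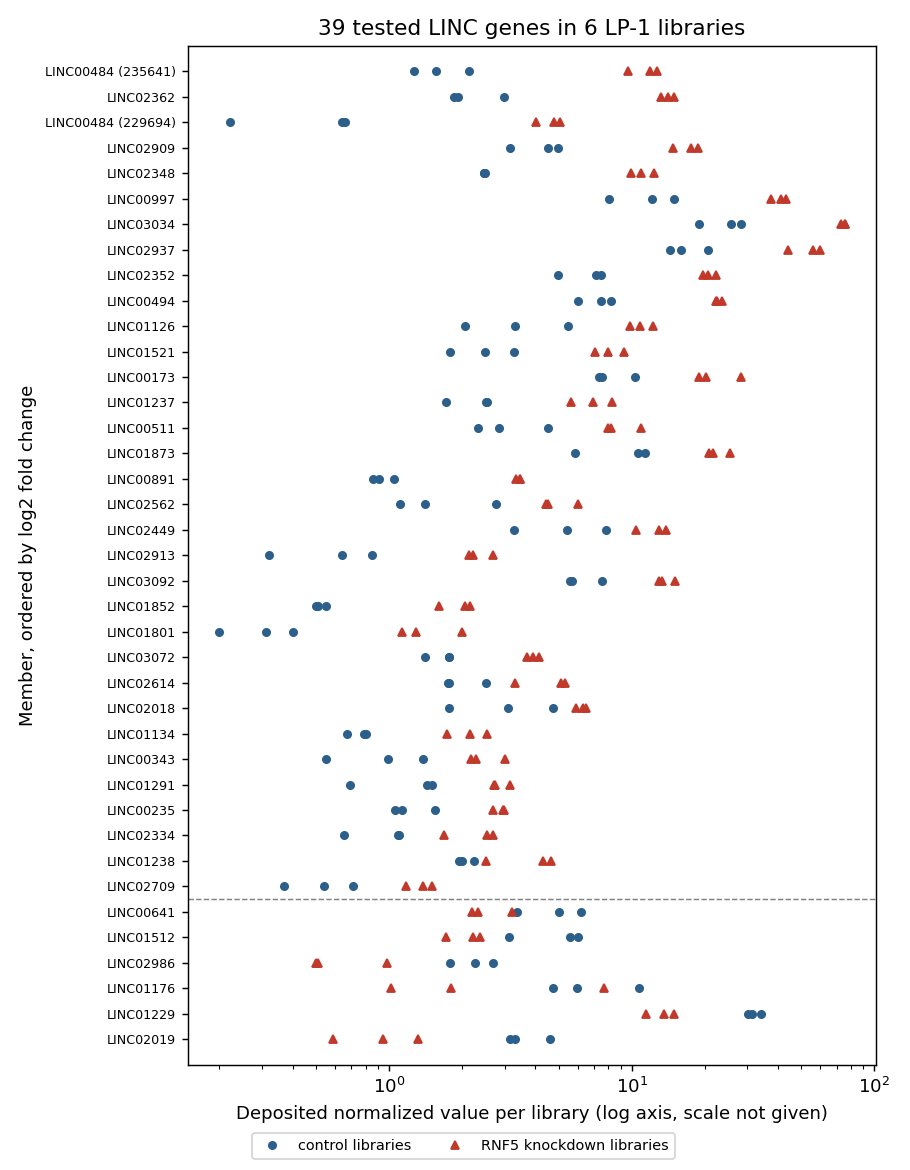
Deposited normalized value (log axis) of each of the 39 tested LINC genes in the 3 control libraries (blue circles) and the 3 knockdown libraries (red triangles), ordered by log2 fold change, with a dashed line between the 33 that rose above it and the 6 that fell below it. In every member but LINC01176 the 2 groups stand apart; for LINC00484 the last 6 digits of the identifier are given.

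Several members that rose lie close together on the long arm of chromosome 9. LINC00484 (ENSG00000235641) had values of 1.27, 1.56 and 2.13 in the control libraries and 11.92, 12.68 and 9.66 in the knockdown libraries. Every knockdown value was above every control value, and the mean rose 6.91-fold, from 1.65 ± 0.438 to 11.4 ± 1.57 (2.23 with an SE of 0.21 in log2 units, adjusted p = 4.83e-06 by limma). Its other entry (ENSG00000229694) went from 0.66, 0.22 and 0.64 to 5.05, 4.04 and 4.79, a ratio of means of 9.13. All 3 of its control values were under 1, so it was tested only because of its knockdown values and no p is given. The authors' deposited table gave log2 values of 3.25 for ENSG00000229694 and 1.97 for ENSG00000235641. The order of the 2 entries was the same in the ratios of means and turned only on the log2(value + 1) scale (1.91 and 2.23), which shrinks the change of low values. The neighbour LINC02937 (ENSG00000230537) had control values of 14.44, 15.99 and 20.61 and knockdown values of 44.19, 59.71 and 56.01, a 3.13-fold rise (1.60 with an SE of 0.20 in log2 units, adjusted p = 2.87e-05 by limma).

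In GENCODE release 29 on GRCh38, LINC02937 lies on the minus strand of chromosome 9 from 91104957 to 91107304, and the LINC00484 entries on the plus strand, ENSG00000229694 from 91119062 to 91182762 and ENSG00000235641 inside it from 91159573 to 91165658. An unnamed lincRNA of the table, AL158071.3 in GENCODE (ENSG00000237422), overlaps LINC00484 on the opposite strand, and it rose from 11.6 ± 1.16 to 77.6 ± 6.36 (2.64 with an SE of 0.17 in log2 units, adjusted p = 6.34e-07 by limma). RefSeq (GRCh38.p14) places the start of LINC02937 elsewhere, in a window from 91163231 to 91163530 on the minus strand. That is 56.0 kb from the GENCODE start and inside LINC00484, so the annotations disagree on whether LINC02937 and LINC00484 are separate or overlapping. Whether the counting used strand is not given. Of the 50-base stretches in the annotated transcripts of ENSG00000229694, 8.61% also occur in AL158071.3 on either strand, and 0.921% of those of ENSG00000235641 do, so some reads could not be told apart without strand. None of the stretches in LINC02937 occur in another gene. The nearest coding gene, AUH, which encodes an RNA-binding enzyme of mitochondrial leucine breakdown, was not in the table.

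A second group lay beside IRF2, the gene of an interferon regulatory factor, on chromosome 4. LINC02362 (ENSG00000249096, minus strand, 184365183 to 184382306) stood at 2.97, 1.86 and 1.93 in the control and at 13.19, 14.91 and 14.10 in the knockdown libraries. This was a 6.24-fold rise with no overlap (2.23 with an SE of 0.20 in log2 units, adjusted p = 4.23e-06 by limma). LINC02363 (ENSG00000180712), 11.2 kb away on the same strand, was too low to test, at 0.16, 0.10 and 0.03 in the control and 0.29, 1.06 and 0.63 in the knockdown libraries. IRF2-DT, the divergent transcript of IRF2, lies 92.5 kb from LINC02362 and rose from 1.27 ± 0.00577 to 3.44 ± 0.284 (0.96 in log2 units, adjusted p = 0.000222 by limma). IRF2 itself was not in the table.

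On chromosome 15, LINC03034 (ENSG00000259772, minus strand, 31221999 to 31230838) and LINC02352 (ENSG00000259448, plus strand, 31216020 to 31224445) overlap tail to tail. LINC03034 had control values of 25.63, 28.17 and 18.89 and knockdown values of 72.96, 75.39 and 75.54, a 3.08-fold rise (1.60 with an SE of 0.18 in log2 units, adjusted p = 1.97e-05 by limma). LINC02352 had control values of 7.51, 7.15 and 4.95 and knockdown values of 19.75, 20.67 and 22.19, a 3.19-fold rise (1.55 in log2 units, adjusted p = 3.52e-05 by limma). The folds of the pair were close, and their annotated transcripts share no 50-base stretch with each other on either strand. The nearest coding gene, TRPM1, which encodes a cation channel of retina and melanocytes, was listed in the other direction, from 0.617 ± 0.371 down to 0.0667 ± 0.0321, below the level required for a test.

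**Figure D3:**
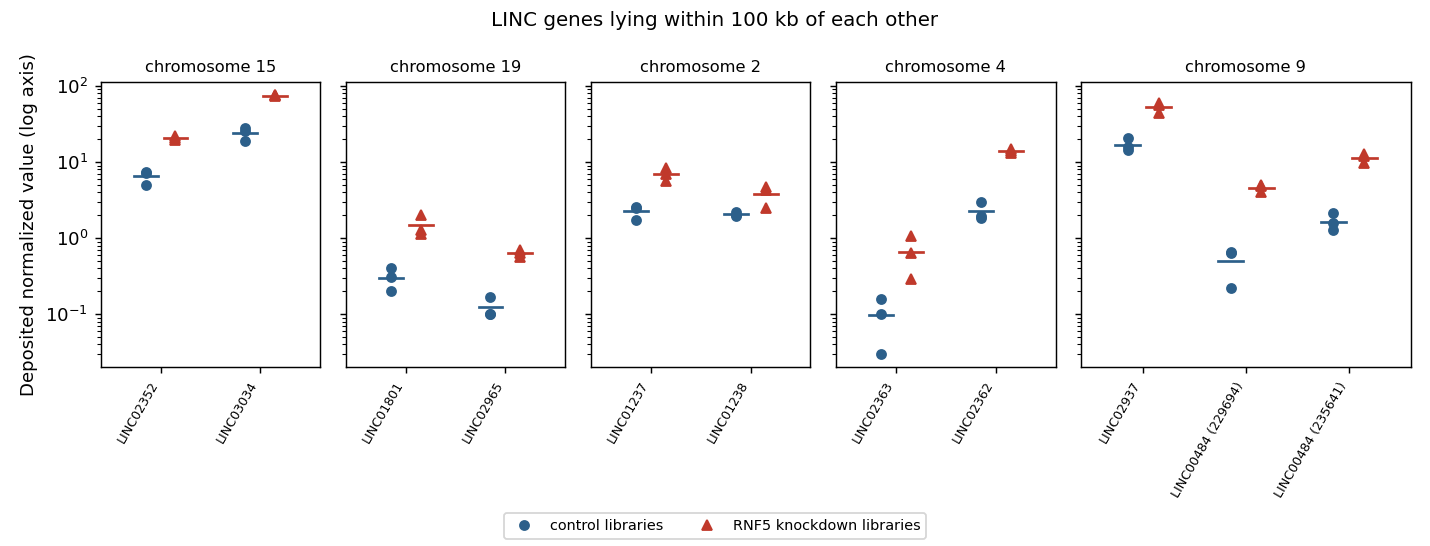
Deposited normalized values (log axis) of the 11 LINC entries that lie within 100 kb of another, in 5 loci, with control libraries in blue, knockdown libraries in red and a short line at each group mean. In each of the 11 entries all 3 knockdown values lie above all 3 control values.

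Similar neighbours were found on chromosomes 2 and 19. LINC01237 (chromosome 2, 241881363 to 242078722) rose 3.08-fold, from 2.26 ± 0.474 to 6.94 ± 1.34 (limma adjusted p = 0.000176), and LINC01238, which lies inside it on the same strand, rose 1.86-fold. LINC01238 was at 2.0, 1.94 and 2.23 in the control and 2.51, 4.33 and 4.66 in the knockdown libraries, so that its lowest knockdown value stood close to its highest control value (0.63 in log2 units, adjusted p = 0.0131 by limma). Without knockdown library 2 or 3 its adjusted p was 0.0559 or 0.0718, and the call was lost. On chromosome 19, LINC01801 stood at 0.31, 0.40 and 0.20 in the control and at 1.13, 1.99 and 1.29 in the knockdown libraries. Tested only because of its knockdown values, it is given without a p. LINC02965, 5.02 kb away on the opposite strand, stood at 0.123 ± 0.0404 and 0.630 ± 0.0656, too low to test.

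In all, 11 of the 54 members with a GENCODE position fell into 5 such loci, and the authors' deposited table gave all 11 as higher. Outside these loci it gave 29 of 43 as higher. For 20 members some listed gene of any kind lay within 100 kb, and the nearest had the same direction in 19 (95.0%). Among the other listed genes with such a neighbour this held for 390 of 555 (70.3%). Neighbouring members count once for each of the pair, and reads that cross gene borders were not examined, so these shares are given without a test. The exception was LINC00891 on chromosome X, which rose from 0.940 ± 0.0985 to 3.42 ± 0.0808, while GCNA, a germ cell gene 83.6 kb away, fell from 4.06 ± 0.625 to 1.69 ± 0.153.

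The promoter windows of 4 members are shown because they open the chromosome 4 and chromosome 15 loci and a clearly separated fall. Each runs 5′ to 3′ in the direction of transcription, from 250 bases before to 50 bases after the RefSeq start (GRCh38.p14). Capitals mark matches to a searched motif, here the heat shock element core GAANNTTC in LINC02362 and the E-box CACGTG in LINC03034, and windows without capitals held none of the 5 motifs searched.
LINC02362 (chr4:184382257-184382556, minus strand): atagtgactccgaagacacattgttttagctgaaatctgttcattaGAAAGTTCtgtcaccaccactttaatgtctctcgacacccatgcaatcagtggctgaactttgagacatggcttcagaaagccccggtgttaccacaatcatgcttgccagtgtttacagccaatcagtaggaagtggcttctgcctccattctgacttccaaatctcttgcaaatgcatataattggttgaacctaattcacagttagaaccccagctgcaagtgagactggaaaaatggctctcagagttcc
LINC03034 (chr15:31230813-31231112, minus strand): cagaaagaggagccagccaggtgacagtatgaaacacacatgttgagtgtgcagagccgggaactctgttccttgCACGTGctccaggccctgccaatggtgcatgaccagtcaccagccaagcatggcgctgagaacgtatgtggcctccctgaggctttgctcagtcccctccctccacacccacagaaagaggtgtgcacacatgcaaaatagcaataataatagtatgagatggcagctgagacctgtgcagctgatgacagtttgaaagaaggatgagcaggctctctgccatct
LINC02352 (chr15:31215771-31216070, plus strand): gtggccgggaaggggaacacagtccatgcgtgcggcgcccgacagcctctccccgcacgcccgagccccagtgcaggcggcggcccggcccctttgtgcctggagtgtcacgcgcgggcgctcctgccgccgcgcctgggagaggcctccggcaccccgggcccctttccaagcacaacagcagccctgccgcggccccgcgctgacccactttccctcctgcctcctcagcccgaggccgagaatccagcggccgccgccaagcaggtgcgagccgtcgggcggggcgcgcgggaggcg
LINC01229 (chr16:79770221-79770520, plus strand): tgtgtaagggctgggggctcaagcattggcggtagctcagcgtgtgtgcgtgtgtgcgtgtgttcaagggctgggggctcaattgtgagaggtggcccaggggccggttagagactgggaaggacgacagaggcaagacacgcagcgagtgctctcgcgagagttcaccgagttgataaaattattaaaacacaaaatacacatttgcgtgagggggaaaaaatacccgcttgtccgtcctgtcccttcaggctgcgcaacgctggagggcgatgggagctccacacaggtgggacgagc
The windows differ in base composition, with 44.0% G and C in LINC02362, 53.0% in LINC03034, 76.3% in LINC02352 and 57.0% in LINC01229. RefSeq gives LINC01229 another start, with a window from 79794999 to 79795298 and 47.0% G and C, and both starts lie inside the longer GENCODE span.

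RefSeq windows were found for 36 of the 55 names, 40 windows in all. GAANNTTC occurred in 3 of the 28 windows of members listed as higher (10.7%) and in none of the 12 of members listed as lower, against 6.77% of 35097 windows of all genes. Its tail-to-tail form TTCNNGAA occurred in no member's window and in 7.74% of all. The antioxidant response element TGACNNNGC was found in 3 of 28 and 1 of 12 windows (13.3% of all), the ATF4 element core TGATGNAA in 0 of 28 and 1 of 12 (3.62% of all), and CACGTG in 4 of 28 and 1 of 12 (7.25% of all). Both strands were read for every motif. With so few windows these counts only describe the letters present and carry nothing about binding. The median G and C content was 58.0% in the windows of members listed as higher, 46.5% in those of members listed as lower and 58.7% in all windows. Most members' windows lay close to the GENCODE start, but some did not. Among those listed as lower, LINC00877 was 179 kb away and the LINC01229 windows 94.4 and 119 kb. Among those listed as higher, LINC03092 was 106 kb and LINC02937 56.0 kb away. These windows were kept in the counts and medians.

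Among the other large rises, LINC00997 (ENSG00000281332, chromosome 7, 32760279 to 32762924) had control values of 14.96, 12.11 and 8.03 and knockdown values of 37.48, 41.43 and 43.15. This single-exon RNA rose 3.48-fold without overlap (1.75 with an SE of 0.22 in log2 units, adjusted p = 3.12e-05 by limma). The listed pseudogene ZNRF2P1, 6.54 kb away on the same strand, rose from 9.67 ± 5.83 to 23.9 ± 3.42 (1.43 in log2 units, adjusted p = 0.00454 by limma). Of the 50-base stretches of LINC00997, 12.2% occur in other genes, most of them in the pseudogene DPY19L1P1, which leaves part of its level uncertain.

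LINC02909 (ENSG00000226397, chromosome 12), which overlaps LRMP, a gene of lymphoid cells, on the opposite strand, rose 4.06-fold from 4.21 ± 0.942 to 17.1 ± 2.02 (1.81 with an SE of 0.21 in log2 units, adjusted p = 1.89e-05 by limma). Its controls were 4.53, 4.95 and 3.15 and its knockdown values 14.85, 17.57 and 18.80. LINC02348 (ENSG00000286733) was unusually even in the control, at 2.46, 2.47 and 2.48, and stood at 10.88, 12.31 and 9.95 in the knockdown libraries, a 4.47-fold rise (1.79 in log2 units, adjusted p = 9.92e-06 by limma). LINC00494 (ENSG00000235621, chromosome 20) had control values of 8.19, 7.46 and 6.02 and closely spaced knockdown values of 22.23, 23.68 and 22.46, a 3.16-fold rise (1.54 in log2 units, adjusted p = 2.33e-05 by limma).

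Several risen RNAs start beside a coding gene. In 4 members the nearest coding gene lay head to head within 1 kb. All 4 were among the 33 that rose, out of 39 tested. None of the 4 coding partners was in the table, but few such genes were. Of the 42 members with a coding gene within 100 kb, 4 had the nearest one listed. Neither count sets these 4 members apart. LINC01126 starts 0.601 kb from ZFP36L2, the gene of an RNA-binding protein that promotes mRNA decay, and LINC01521 starts 0.545 kb from PATZ1, a zinc finger transcription factor gene. LINC01126 had control values of 5.45, 3.29 and 2.05 and knockdown values of 10.86, 12.19 and 9.82 (3.05-fold, 1.44 in log2 units, adjusted p = 0.000309 by limma). LINC01521 had control values of 3.28, 2.49 and 1.78 and knockdown values of 9.34, 7.98 and 7.03 (3.23-fold, 1.39 in log2 units, adjusted p = 0.000134 by limma). In both, control library 1 was the highest control and library 3 the lowest, and the lowest knockdown value was still above the highest control value. LINC01134, 0.079 kb from C1orf174, went from 0.753 ± 0.0723 to 2.14 ± 0.395, tested only because of its knockdown values, and LINC00235, 0.310 kb from the calpain gene CAPN15, from 1.24 ± 0.259 to 2.87 ± 0.157. Beside LINC01126, a listed antisense RNA on its strand, AC010883.1, lay 0.718 kb away and rose from 4.02 ± 0.949 to 11.7 ± 1.74.

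LINC00511 (ENSG00000227036, chromosome 17, 72290091 to 72640472), studied as a growth-promoting RNA in several carcinomas, was 1 of only 2 members on a list of 35 LINC names with published roles. Its values were 4.52, 2.83 and 2.33 in the control and 10.90, 7.96 and 8.22 in the knockdown libraries, a 2.80-fold rise (1.27 with an SE of 0.23 in log2 units, adjusted p = 0.000344 by limma). With the trend of values on gene length removed, its log2 fold change was 0.68, the annotated exons of this gene adding up to 27605 bases. The other listed member, LINC01234, is described with the low falls. LINC00173 on chromosome 12 rose 2.68-fold, from 7.31, 10.33 and 7.52 to 28.23, 19.01 and 20.19, with the highest value in knockdown library 1 (1.32 in log2 units, adjusted p = 0.000164 by limma). LINC01873 on chromosome 2 rose 2.45-fold, from 11.32, 10.57 and 5.82 to 20.91, 25.40 and 21.59 (1.25 in log2 units, adjusted p = 0.000413 by limma), but 31.7% of its 50-base stretches occur in other genes.

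The 21 risen members outside the 12 largest had log2 fold changes from 0.62 to 1.32, control means from 0.303 to 9.24 and knockdown means from 1.35 to 22.6. Over all 33 risen members the ratio of means ran from 1.86 to 9.13 with a median of 3.05, and 31 reached at least 2-fold. Ratios of means exceeded the authors' deposited values in most members. Over the 39 tested members the log2 ratio of the means minus the log2 value of the authors' deposited table had a median of 0.16, with extremes of -0.37 in LINC02937 and 1.17 in LINC01176. The same difference had a median of 0.17 over the 431 listed genes with both group means at least 5. It is therefore not particular to the LINC genes.

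**Figure D4:**
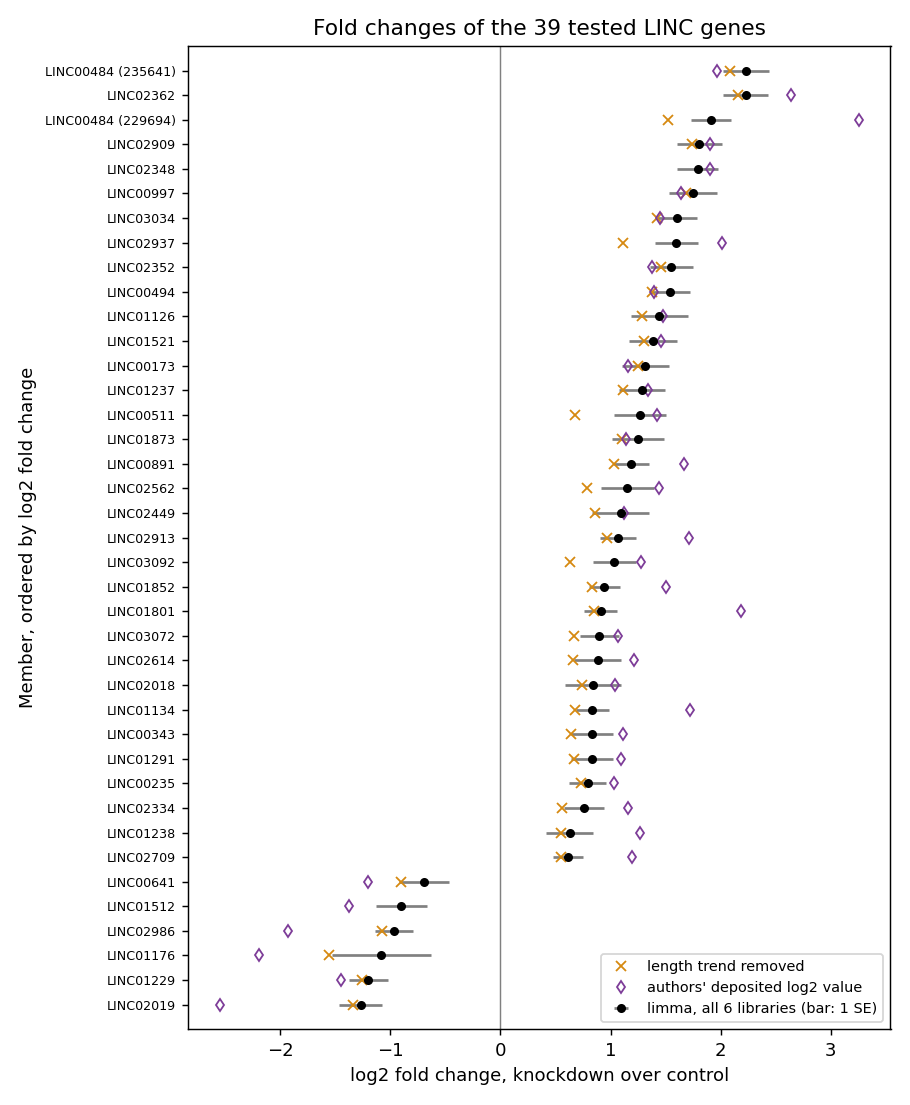
Log2 fold change of the knockdown over the control for the 39 tested LINC genes, from limma on log2(value + 1) with 1 SE (black), after removal of the trend of values on gene length (orange crosses, absent for the 2 genes with no GENCODE length) and as the log2 value in the authors' deposited table (purple diamonds). All 3 estimates lie on the same side of 0 for each gene, from -1.27 (LINC02019) to 2.23 (LINC00484) in the limma fit.

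Only 6 tested members fell. LINC01229 (ENSG00000260876, chromosome 16, 79676108 to 79807922) lies 75.4 kb from MAF, the gene of a transcription factor that chromosomal translocation activates in some myelomas and that was not in the table. It stood at 34.18, 30.10 and 31.24 in the control and at 11.49, 14.89 and 13.62 in the knockdown libraries. The groups were far apart, and the mean fell 2.39-fold, from 31.8 ± 2.11 to 13.3 ± 1.72 (-1.20 with an SE of 0.18 in log2 units, adjusted p = 9.06e-05 by limma). LINC02019 (ENSG00000273356, chromosome 3), 3.19 kb from DOCK3, went from 4.61, 3.14 and 3.30 to 1.31, 0.94 and 0.59, a 3.89-fold fall (-1.27 with an SE of 0.20 in log2 units). Only 1 of its 3 knockdown values reached 1, so it met the filter through its control values and no p is given.

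LINC02986 (chromosome 8), a single-exon RNA, stood at 2.68, 1.78 and 2.27 in the control and at 0.98, 0.51 and 0.50 in the knockdown libraries. It was tested only because of its control values, so no p is given. A listed lincRNA 2.17 kb from it, AC009812.3, had means of 1.03 ± 0.140 and 0.493 ± 0.137, too low to test. LINC01512 fell from 4.92 ± 1.56 to 2.10 ± 0.350 (-0.90 in log2 units, adjusted p = 0.00279 by limma). LINC00641, which lies 2.24 kb from HNRNPC, the gene of a nuclear RNA-binding protein, had control values of 6.18, 3.37 and 5.0 and knockdown values of 2.20, 3.20 and 2.33. Its groups almost touched, between control library 2 and knockdown library 2, and the fall was 1.88-fold (-0.69 with an SE of 0.23 in log2 units, adjusted p = 0.0110 by limma).

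LINC01176 (ENSG00000281404, chromosome 7) was the tested member whose groups overlapped. It stood at 5.94, 4.73 and 10.70 in the control and at 7.68, 1.02 and 1.80 in the knockdown libraries, so knockdown library 1 lay among the controls. Its log2 fold change was -1.08 with an SE of 0.45 (limma adjusted p = 0.0347), and the authors' deposited table gave -2.19. The call was lost without knockdown library 2 (adjusted p = 0.174) or 3 (0.0743) and without control library 1 (0.0572) or 3 (0.195), and without the filter on low values (0.0695). Both it and LINC01238 were singled out after their values were seen.

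The 17 members too low to test comprised 9 of the 15 listed as lower and 8 of the 41 listed as higher. Those listed as lower had control means from 0.0900 to 1.22 and knockdown means from 0 to 0.383. LINC01219, LINC01363 and LINC02884 were listed at 0 in all 3 knockdown libraries, and their control values were 0.70, 0.10 and 0.35, then 0.09, 0.29 and 0.36, then 0.12, 0.08 and 0.07. No member was listed at 0 in all 3 control libraries. An exact 0 at this depth of rounding may be a value under 0.005, so no fold is given for them. LINC01234, studied as a growth-promoting RNA in stomach and lung cancer, had 0.56, 0.30 and 0.29 in the control and 0.07, 0.03 and 0.08 in the knockdown libraries.

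Among these low members, 2 overlap a coding gene that was listed in the same direction. LINC00628 (chromosome 1), at 0.440 ± 0.0656 and 0.0200 ± 0.0346, sits on the same strand inside PLEKHA6, which fell from 3.61 ± 0.690 to 0.143 ± 0.0709 (-2.0 in log2 units). The knockdown values of PLEKHA6 were 0.08, 0.13 and 0.22, so it was tested only because of its control values and no p is given. LINC01226 overlaps TINAGL1 on the same strand and was at 1.67, 1.33 and 0.66 in the control and 0.12, 0.17 and 0.86 in the knockdown libraries, groups that overlap. TINAGL1 was listed at 0 in all 3 knockdown libraries. Reads from an unspliced coding transcript and from a LINC gene inside it cannot be told apart in these values. The groups also overlapped in LINC01338 and LINC01933. Those listed as higher had control means from 0.0167 to 0.267 and knockdown means from 0.313 to 1.48, the extreme ratio being that of LINC02593, at 0.02, 0.02 and 0.01 in the control and 0.26, 0.33 and 0.35 in the knockdown libraries. LINC00648 rested mostly on knockdown library 3, with 0.60, 0.88 and 2.97.

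In the GENCODE annotation the 54 matched members had a median exonic length of 2520.5 bases and a median of 3 exons, and 8 had a single exon. The 40 listed as higher had a median length of 2664.5 bases and the 14 listed as lower one of 1932.5 bases. All listed genes had a median of 4055 bases and 6 exons. The longest transcripts had a median G and C content of 49.3% in members listed as higher and 46.6% in those listed as lower. In 5 members, all listed as higher, at least 10% of the 50-base stretches also occur in other genes, which makes their levels uncertain. These were LINC01873, LINC00997, LINC02449 (21.4%), LINC02018 (16.1%) and LINC03092, which stood just at that limit. No stretch was shared in 23 members.

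Few genes that make or remove such RNAs were in the table. Of 31 gene names of nuclear RNA decay, older names included, 1 was listed, TENT4B, a poly(A) polymerase that marks nuclear RNAs for the exosome, which fell from 8.39 ± 1.71 to 4.62 ± 0.927 (-0.74 in log2 units, adjusted p = 0.00548 by limma). Of 34 names of transcription termination and Integrator genes, 1 was listed, the Integrator subunit INTS12, which fell from 69.0 ± 1.53 to 33.5 ± 3.74 (-1.03 in log2 units, adjusted p = 0.000144 by limma). Of 22 names of chromatin silencing genes, 1 was listed, UHRF1, which maintains DNA methylation and rose from 5.24 ± 1.98 to 15.6 ± 0.131 (1.46 in log2 units, adjusted p = 0.000185 by limma). None of 17 genes of nonsense-mediated decay was listed. The part of these genes in the LINC values was not tested.

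Of 56 names of other well-studied non-coding RNAs, 3 were listed, 1 rising and 2 falling. MIR17HG, the host transcript of the miR-17-92 microRNAs, rose from 9.87 ± 2.89 to 22.6 ± 3.25 (1.14 in log2 units, adjusted p = 0.000547 by limma). ZFAS1, a host of small nucleolar RNAs, fell from 247 ± 75.2 to 118 ± 5.52 (-1.03 in log2 units, adjusted p = 0.000482 by limma). LUCAT1, a stress-responsive RNA, fell from 34.2 ± 2.10 to 6.84 ± 1.54 (-2.18 in log2 units, adjusted p = 4.10e-06 by limma).

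Summed over the members, the values came to 178 to 218 per control library and to 443 to 468 per knockdown library. As a share of the sum over all listed genes this was 0.190% to 0.240% and 0.379% to 0.383%. Control library 3 had the lowest control value in 30 of the 56 members, as it did in 430 of 598 listed genes with a mean of at least 5, and without it 33 members rose and 5 fell. Knockdown library 1 had the lowest knockdown value, ties included, in 29 members, as it did in 333 of those 598 listed genes. Without this library 33 members rose and 6 fell. Among members with a mean of at least 1, the median coefficient of variation was 22.4% in the control and 13.8% in the knockdown. Of 9 plasma cell markers only SDC1 was in the table (12.1 ± 2.66 in the control, 35.5 ± 1.16 in the knockdown). None of 20 markers of T, NK, myeloid, erythroid and platelet cells was listed. Of 6 fibroblast and 6 epithelial markers COL1A1 (0.593 ± 0.125 and 0.217 ± 0.197) and CLDN4 (2.70 ± 0.735 and 1.36 ± 0.104) were listed, both lower in the knockdown. Markers outside the table have no value, so the labelled cell type could not be checked further.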

How the data were processed

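RNA of 6 LP-1 libraries was sequenced. The submitters' processing notes name Bowtie 0.12.2 and hg19 without saying for which step. The normalized signal per library and the group means were deposited by the authors, their scale unstated. The fold ratio, its log2 value and the p-value with its adjusted form were deposited by the authors from an unstated test. Only genes the authors had selected were listed.

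LINC rows were taken by name. limma 3.58.1 (R 4.3.3) with a mean-variance trend was fitted to log2(value + 1) with the group alone, over genes reaching 1 or more in at least 3 libraries. Benjamini-Hochberg adjustment covered all 1290. The fit was run on simulated data in which a minority of genes changed and all had equal noise. Nearly all tested genes of this selected table were called, so that run checks the code and not the error rates here. Alternatives were a pseudocount of 0.1, no filter, a replicate term, no trend, a shift of the knockdown values by their median difference from the authors' folds, removal of the length trend, and each library left out with the genes tested kept fixed.

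Members and lists were chosen with earlier results of these data known. Named were up to 12 called members in each direction with the largest change among those with separate groups and a mean of at least 1, the 6 highest, up to 4 not called, up to 6 at 0 throughout a group, those with published roles, up to 4 genes of each other list, and the closest listed gene within 100 kb of such a member. Other members and neighbours were named after their values were seen. Positions and lengths came from GENCODE release 29 (GRCh38) by identifier, which matched 54 members, and not from the authors' alignment. The deposited table holds no coordinates.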

Additional observations from a re-analysis of the deposited data

How the results depend on the processing

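The counts of members that rose (33) and fell (6) were the same with a pseudocount of 0.1, without the trend, with a replicate block (39 members called, and 1272 of all genes in place of 1260) and with the knockdown divided by the offset of 0.17 (log2). With the length trend removed, 37 members could be fitted, of which 32 rose and 5 fell, and the median change was 0.83 in log2 units in place of 1.07. Without the filter, all 56 members entered and 41 rose and 13 fell, and over all genes 882 fell in place of 542, since more genes were tested. Leaving out each library gave 37 to 39 called members, 32 or 33 higher and 5 or 6 lower. The 20 tested members chosen by the rule for size, level or published role kept their direction and call in 238 of 238 refits. Most of the 20 had been chosen for a large change with separate groups in these same libraries, so this outcome was largely fixed beforehand. They include LINC00484 (ENSG00000229694) and LINC02986, each tested only because of 1 group. LINC01176 and LINC01238, outside that rule, lost their calls as given above. Without the filter the median change over all genes was -0.10 in log2 units in place of 0.73. Same-numbered libraries did not deviate together (correlations -0.16, -0.07 and -0.08 over genes). These correlations cannot show whether equal numbers share a culture or day. Because each replicate number occurs once in each group, the block leaves every log2 fold change as it was and alters only the SE. The RNF5 value of -4.06 under the block is therefore no check. Depth is unknown, so the counting error of low values cannot be given, and rounding to 2 decimals affects mainly the very lowest values.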
